A study of Mus musculus with 2 samples.

Results

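The 9 genes described here were *Gbp2*, *Gbp3*, *Gbp4*, *Gbp5* and *Gbp7*, which encode guanylate-binding proteins, *Igtp*, *Irgm1* and *Iigp1*, which encode immunity-related GTPases, and the chemokine gene *Cxcl9*. They were taken by their symbols from the 27809 genes of the deposited single-cell count matrix, and all 9 were present. The matrix holds CD45+ cells of the mouse heart, captured with BD Rhapsody and read by TAS-Seq, a single-cell method, where oligonucleotide-tagged antibodies (hashtags) mark the group each cell came from. The labels give male C57BL/6N mice for the pooled cells, and the mice were 8 weeks old. The 5 groups were wild-type (WT) mice after sham surgery, mice lacking CD3e (CD3e-/-, labelled CD3eKO) after sham surgery, WT mice after transverse aortic constriction (TAC), CD3e-/- mice after TAC, and WT mice given TAC together with a CD8-depleting antibody. The cells were taken 1 week after surgery. TAC narrows the aorta and loads the left ventricle with pressure. CD3e is part of the T-cell receptor complex, so mice lacking it have no mature T cells but keep NK cells. The CD3e deletion is germline, and the antibody removes any cell that carries CD8. All 5 groups were pooled into 1 library and each group is 1 hashtag, with the number of animals behind a hashtag not given. The values below therefore have no replicate spread. Intervals are exact 95% Poisson limits for levels and exact 95% Clopper-Pearson limits for shares of cells. They cover counting error only, and the counts are reads rather than molecules, so they are narrower than the true error.

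Interferon-gamma is released by activated T cells and NK cells and binds the receptor encoded by *Ifngr1* and *Ifngr2* on macrophages and many other cells. Signals from the receptor act on promoters through GAS elements, and Irf1, made in a second wave, binds interferon-stimulated response elements (ISREs). Guanylate-binding proteins and immunity-related GTPases are large GTPases of cell-autonomous defence. The first coat vacuoles and bacteria in the cytosol and help inflammasomes to form. The second act on the membranes of vacuoles that hold pathogens, where Iigp1 (also called Irga6) is an effector and Irgm1 and Igtp (Irgm3) are regulators that protect the cell's own membranes. Cxcl9 is secreted and attracts activated T cells and NK cells through the receptor Cxcr3. Type I interferon also induces several of the GTPases, while Cxcl9 is known for a stronger dependence on interferon-gamma.

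By RefSeq positions on GRCm38.p6, 4 of the 5 *Gbp* genes lie in 1 cluster on chromosome 3, *Gbp5* at chr3:142496934-142522344, *Gbp7* at chr3:142530336-142550151, *Gbp3* at chr3:142560016-142573213 and *Gbp2* at chr3:142620663-142638008. *Gbp4* lies in the other mouse cluster, at chr5:105115767-105139586, and *Cxcl9* on the same chromosome at chr5:92321331-92328079. Of the immunity-related GTPase genes, *Irgm1* is at chr11:48865245-48871420 and *Igtp* at chr11:58199556-58207592, while *Iigp1* lies on another chromosome.

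Promoter sequences from RefSeq (GRCm38.p6) were matched for 7 of the 9 genes, with none for *Gbp4* and *Iigp1*. The stretches just before the start site of 6 of them are shown because GAS and ISRE letters are what such genes are known to share. Capitals mark TTCNNNGAA, the core of a GAS element, and GAAANNGAA or its reverse complement TTCNNTTTC, an ISRE-like core. Each stretch reads 5′ to 3′ toward the gene and ends at the base before the start. In order they cover chr3:142620543-142620662 (plus strand), chr3:142496814-142496933 (plus), chr3:142530216-142530335 (plus), chr11:58199436-58199555 (plus), chr11:48871421-48871540 (minus) and chr5:92328080-92328279 (minus).
Gbp2: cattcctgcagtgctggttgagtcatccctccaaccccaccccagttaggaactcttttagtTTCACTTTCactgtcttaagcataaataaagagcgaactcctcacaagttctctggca
Gbp5: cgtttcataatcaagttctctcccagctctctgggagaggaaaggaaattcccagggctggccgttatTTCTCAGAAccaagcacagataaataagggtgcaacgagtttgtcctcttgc
Gbp7: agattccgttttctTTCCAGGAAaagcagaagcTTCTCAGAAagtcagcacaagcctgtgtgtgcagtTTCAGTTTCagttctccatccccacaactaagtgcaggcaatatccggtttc
Igtp: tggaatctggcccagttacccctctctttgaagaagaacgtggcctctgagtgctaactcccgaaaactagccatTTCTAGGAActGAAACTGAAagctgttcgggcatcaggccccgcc
Irgm1: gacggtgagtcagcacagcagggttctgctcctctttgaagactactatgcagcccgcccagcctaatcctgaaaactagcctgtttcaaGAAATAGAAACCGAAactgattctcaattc
Cxcl9: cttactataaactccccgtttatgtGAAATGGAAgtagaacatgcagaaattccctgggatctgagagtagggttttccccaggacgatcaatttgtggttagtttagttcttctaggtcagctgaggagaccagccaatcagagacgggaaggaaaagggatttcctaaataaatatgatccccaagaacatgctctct

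The ISRE-like letters stood within 250 bases before the start in 7 of the 8 promoter entries of the matched genes, against 7.13% of 32851 promoters searched on both strands. *Gbp3*, not printed, has 2 of these entries, of which 1 holds them. The GAS letters stood in 3 of the 8 entries (*Gbp5*, *Gbp7* and *Igtp*), against 7.02% of all promoters. In *Irgm1* the matches overlap, 30 and 24 bases before the start. In *Igtp* a GAS match at 45 and an ISRE-like match at 34 bases lie almost side by side. The *Cxcl9* match is the farthest of those printed, 175 bases before the start. *Gbp5* also has an ISRE-like match at 164 and a GAS match at 245 bases, outside the printed stretch. A match is a run of letters and was not tested as a binding site.

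After filters, 5263 cells were kept, 1000 from WT sham, 835 from CD3e-/- sham, 1615 from WT TAC, 919 from CD3e-/- TAC and 894 from CD8-depleted TAC. Cells were gated on their own counts scaled to 1000000 reads (CPM). Cells with at least 100 CPM of *Csf1r* and 1000 CPM of *Lyz2*, here called Csf1r+ Lyz2+ cells and holding macrophages and monocytes, numbered 574, 464, 1129, 674 and 630 in the same order. Of these, the cells with at least 500 CPM of *Ly6c2*, a marker of inflammatory monocytes, numbered 24, 35, 162, 170 and 144. Their share of all kept cells was 2.40% (1.54 to 3.55) in WT sham and 4.19% (2.94 to 5.78) in CD3e-/- sham, had limits of 8.61% and 11.6% in WT TAC, and was 18.5% (16.0 to 21.2) in CD3e-/- TAC and 16.1% (13.8 to 18.7) in CD8-depleted TAC. The remaining Csf1r+ Lyz2+ cells are called Ly6c2-. Other gates were Cd209a+ (417 cells, dendritic-cell marker), Cd79a+ (434 cells, B-cell marker) and a lymphoid gate on *Nkg7*, *Cd3g* or *Trbc2* without *Csf1r* (178 cells). The median reads per Csf1r+ Lyz2+ cell were 75429, 81094, 99743, 128138 and 104344, so shares of cells with a read are given after cells were thinned to 38916 reads. Shallower cells were left out of these shares, 92, 61, 103, 46 and 45 of the Csf1r+ Lyz2+ cells in the 5 groups.

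As a check of the labels, lymphoid-gate cells with *Cd3g* reads numbered 37 of 71, 3 of 28, 27 of 37, 0 of 15 and 20 of 27 in the 5 groups, low in both CD3e-/- groups. *Cd3e* reads numbered 1702, 343, 2264, 768 and 1484. Where these reads lie relative to the deleted part was not checked. Cells with *Cd8a* or *Cd8b1* reads made up 1.00%, 0.240%, 1.18%, 0.435% and 1.01% of kept cells, so a loss of CD8 cells in the CD8-depleted group was not detectable in this count. In Csf1r+ Lyz2+ cells the summed CPM of a fibroblast marker list went from 135 in WT sham to 60.1, 3.17, 2.32 and 0.899, that of a monocyte list from 1902 to 2742, 3573, 4569 and 4551, that of a T and NK cell list from 59.5 to 14.4, 18.5, 3.25 and 35.8, and that of a neutrophil list from 57.7 to 152, 155, 154 and 259. The sums of the endothelial, B-cell and cardiomyocyte lists were at most 42.0 CPM in each group. In WT sham the fibroblast sum was 2114 CPM in cells at or above the *Ly6c2* limit (Ly6c2+) and 0.803 CPM in Ly6c2- cells. In CD3e-/- sham it was 0.649 and 65.8 CPM. The T and NK cell sum in Ly6c2+ cells was 163, 4.11, 2.16, 2.11 and 37.5 CPM in the 5 groups. The part of these marker reads in the levels below was not tested.

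In Csf1r+ Lyz2+ cells, most of the 9 genes were higher after TAC than after sham surgery in both genotypes, and the 2 highest levels of each gene were those of the CD8-depleted and the CD3e-/- TAC hearts. *Gbp2*, a guanylate-binding protein that is recruited to pathogen vacuoles, stood at 34.6 CPM (33.0 to 36.2) in WT sham, 31.2 (29.7 to 32.7) in CD3e-/- sham, 75.2 (73.7 to 76.6) in WT TAC, 108 (106 to 110) in CD3e-/- TAC and 140 (137 to 142) in CD8-depleted TAC. Both sham groups were low, and the TAC groups went up in the order given, with 1 sample each. *Gbp5*, which promotes inflammasome assembly, had the same order above sham, with 15.6, 11.4, 28.8, 32.3 and 48.0 CPM. *Gbp4* had 7.33, 6.42, 13.3, 16.2 and 17.1 CPM, again low in both sham groups. *Gbp7* ran from 72.8 and 60.9 CPM in the sham groups to 104, 115 and 140 CPM in the TAC groups. *Gbp3* had 44.8, 62.2, 69.6, 81.2 and 94.7 CPM, and was the one gene whose CD3e-/- sham level was above that of WT sham. These CPM values are not scaled by transcript length, so they order groups within a gene and not genes.

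Among the immunity-related GTPases, *Igtp* stood at 29.1, 22.1, 50.7, 57.5 and 70.9 CPM and *Irgm1* at 42.7, 40.9, 66.0, 72.7 and 89.6 CPM. Both regulators followed the order of *Gbp5*, lowest in CD3e-/- sham and highest in CD8-depleted TAC. *Iigp1*, the effector, did not: it stood at 27.4, 13.0, 22.6, 31.8 and 48.8 CPM, so the WT sham level was above that of WT TAC. The 5 cells richest in *Iigp1* held 74.2% of its reads in WT sham and 38.5% to 42.9% in the other groups. *Cxcl9* stood at 8.52 (7.75 to 9.34), 5.77 (5.14 to 6.46), 22.3 (21.5 to 23.1), 55.5 (54.1 to 56.9) and 38.1 (36.7 to 39.5) CPM. It was the only one of the 9 genes whose highest level was in CD3e-/- TAC. The 5 richest cells held 75.3% to 100% of its reads in every group, so its level in a group rests on few cells.

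**Figure D1:**
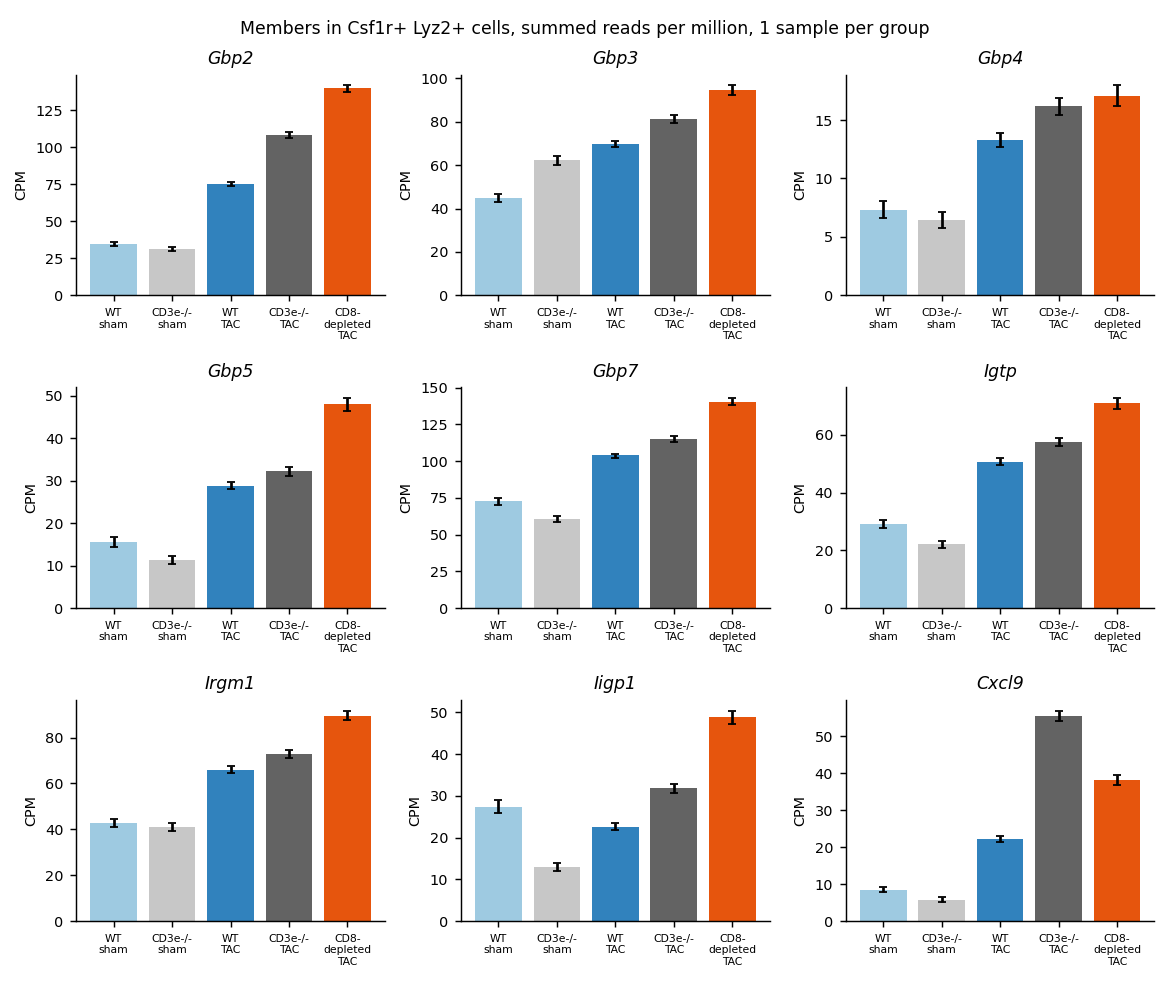
Levels of the 9 genes in summed Csf1r+ Lyz2+ cells, in CPM from 0, as 1 bar for each of the 5 groups (1 sample each) with exact 95% Poisson limits. The 3 TAC groups stand above both sham groups for 8 of the genes, and *Iigp1*, at 27.4 CPM in WT sham and 22.6 CPM in WT TAC, is the exception.

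TAC against sham within a genotype asked how pressure overload moved these genes. Ratios are given as log2 of (CPM + 1), and a gene was counted as higher or lower when it differed by at least 1.5-fold, a size rule without a test. In WT hearts 7 of the 9 genes were higher and 0 lower, where 6.00% of 10526 genes were higher and 5.04% lower. The median over the 9 genes was 0.78, against 0.03 over all genes. *Cxcl9* (1.29) and *Gbp2* (1.10) had the largest ratios, *Gbp7* (0.50) missed the size rule, and *Iigp1* (-0.27) was below 0. In CD3e-/- hearts 8 of the 9 were higher and 0 lower, where 7.81% of genes were higher and 6.11% lower. The median there was 1.23 against 0.04 over all genes. *Cxcl9* (3.06) and *Gbp2* (1.76) led again, and *Gbp3* (0.38) missed the size rule. In WT hearts the 5 cells richest in *Gbp2* held 71.4% of its sham reads, and the ratio was 2.51 without the 5 richest cells of each group. The WT *Cxcl9* ratio was 0.43 in thinned cells, below the size rule, and only 4 of the 9 genes met the rule in WT hearts with a pseudocount of 10 CPM.

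The share of thinned cells with a read gives each cell the same weight. *Gbp2* reads were in 5.19%, 12.4%, 17.2%, 24.8% and 24.8% of thinned Csf1r+ Lyz2+ cells. *Irgm1* reads were in 26.3%, 26.8%, 37.9%, 43.5% and 43.8%, and *Igtp* reads in 16.0%, 17.6%, 25.6%, 30.6% and 30.9%. For these genes the 2 manipulated TAC groups had nearly equal shares, both above WT TAC. *Iigp1* reads were in 5.60%, 5.71%, 7.12%, 8.28% and 9.91% of cells, so its share was not highest in WT sham although its WT sham level exceeded that of WT TAC. *Cxcl9* reads were in only 1.04%, 1.49%, 1.46%, 2.87% and 2.56%.

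CD3e-/- against WT asked how the genes stood in hearts without T cells, a source of interferon-gamma beside NK cells. In sham hearts 0 of the 9 were higher and 1, *Iigp1* (-1.02), was lower, where 3.55% of genes were higher and 6.65% lower. The median was -0.25, against -0.04 over all genes. The *Iigp1* ratio was 0.07 without the 5 richest cells of each group. After TAC, all 9 ratios of CD3e-/- over WT were above 0, with a median of 0.22 against -0.02 over all genes. Only *Cxcl9* (1.28) was higher by the size rule and 0 were lower, where 1.57% of genes were higher and 2.86% lower. *Gbp2* (0.52) and *Iigp1* (0.48) came next, and the other 6 genes had ratios of 0.14 to 0.26. The *Cxcl9* ratio was 0.51 over every kept cell and 0.10 in Ly6c2- cells alone, both under the size rule.

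CD8-depleted TAC against WT TAC asked the same of CD8 cells, and shares its WT TAC control with the comparison just given. Again all 9 ratios were above 0, with a median of 0.48 against -0.00 over all genes. *Iigp1* (1.08), *Gbp2* (0.89), *Cxcl9* (0.75) and *Gbp5* (0.71) were higher by the size rule and 0 were lower, where 1.45% of genes were higher and 1.49% lower. *Igtp* (0.48), *Gbp3* (0.44), *Gbp7* (0.43), *Irgm1* (0.43) and *Gbp4* (0.34) did not reach it. Over every kept cell the *Cxcl9* ratio was 0.05.

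The 9 genes also differed within the Csf1r+ Lyz2+ cells. By the size rule, all 9 genes were higher in Ly6c2+ than in Ly6c2- cells of the same group in WT sham, where 21.4% of all genes were higher, in CD3e-/- sham (20.6%), in CD3e-/- TAC (9.64%) and in CD8-depleted TAC (11.2%). In WT TAC 7 of the 9 were higher (9.49% of genes), *Iigp1* missed the rule at 27.7 against 21.6 CPM, and *Cxcl9* was lower in Ly6c2+ cells at 16.3 against 23.4 CPM. The median log2 ratios of the 9 genes were 1.87, 1.25, 1.21, 1.87 and 2.04, while those of all genes were -0.08 to -0.01. The sham Ly6c2+ gates hold only 24 and 35 cells, and that of WT sham holds the high fibroblast sum given above. In each of them *Cxcl9* came from 1 cell and *Iigp1* from 2 cells, and the thinned shares of *Iigp1* in CD3e-/- sham were 6.06% in Ly6c2+ and 5.68% in Ly6c2- cells.

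*Gbp2* stood at 329, 108, 166, 252 and 338 CPM in Ly6c2+ cells and at 14.6, 23.7, 58.2, 57.9 and 76.0 CPM in Ly6c2- cells. In WT sham, 5 of the 24 Ly6c2+ cells held 92.3% of the *Gbp2* reads. *Irgm1* stood at 126, 87.9, 127, 159 and 178 CPM in Ly6c2+ cells and at 37.1, 36.3, 54.6, 42.6 and 61.3 CPM in Ly6c2- cells. For both genes the lowest Ly6c2+ group lay above the highest Ly6c2- group. This was also so for *Igtp*, with 86.9, 48.5, 130, 122 and 175 CPM against 25.2, 19.5, 35.9, 34.7 and 37.5 CPM. In thinned Ly6c2+ cells, *Gbp3* reads were in 33.3%, 45.5%, 49.7%, 52.1% and 65.7%, and *Igtp* reads in 20.8%, 30.3%, 38.5%, 48.5% and 57.1%.

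**Figure D2:**
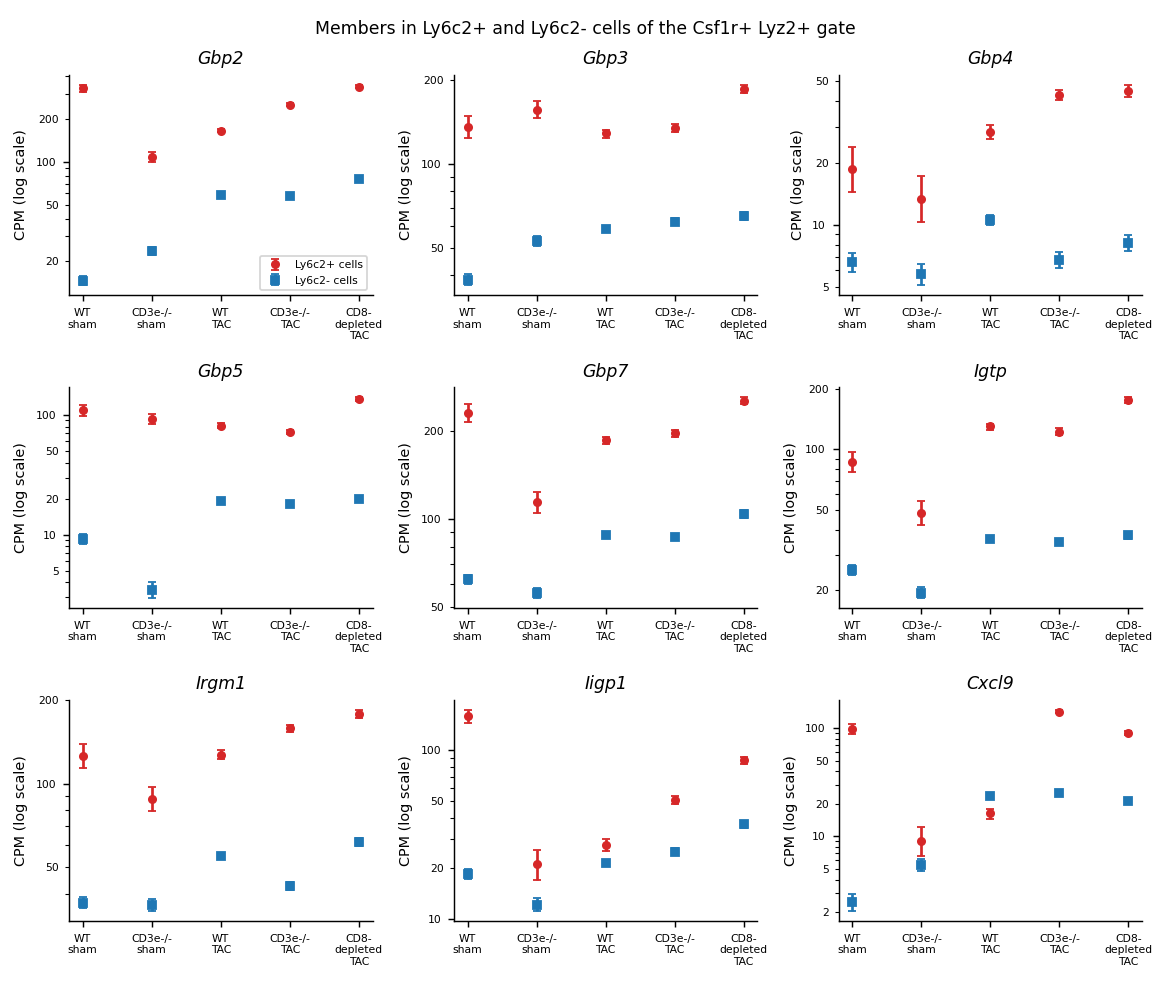
Levels of the 9 genes in CPM on a log axis, in Ly6c2+ (red circles) and Ly6c2- (blue squares) Csf1r+ Lyz2+ cells of each group, with exact 95% Poisson limits. Red lies above blue for every gene and group except *Cxcl9* in WT TAC, at 16.3 against 23.4 CPM.

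Because Ly6c2+ cells were a larger share of the TAC groups, each comparison was also made within each gate. In Ly6c2- cells alone, 5 of the 9 genes were higher with TAC in WT (6.05% of 10564 genes) and 6 in CD3e-/- hearts (8.67%), with medians of 0.59 and 0.80. In Ly6c2+ cells alone, 0 were higher with TAC in WT (28.8% of 10033 genes) and 3 lower (17.3%), with a median of -0.31 and 3 of 9 ratios above 0, against the 24 WT sham cells. In CD3e-/- hearts 7 were higher in Ly6c2+ cells (24.9%), with a median of 1.21.

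By their medians, the ratios between TAC groups were larger in Ly6c2+ than in Ly6c2- cells. In Ly6c2- cells, CD3e-/- TAC over WT TAC gave 0 genes higher (1.84% of genes), a median of -0.03 and 3 of 9 ratios above 0. In Ly6c2+ cells it gave 4 genes higher (7.84%) and a median of 0.32. CD8-depleted over WT TAC gave 1 higher in Ly6c2- cells (1.84%) with a median of 0.15, and 5 in Ly6c2+ cells (7.69%) with a median of 0.65 and 9 of 9 ratios above 0. With the gate shares of WT TAC put on every group, 7 higher genes became 1 for TAC in WT and 4 became 2 for CD8 depletion. This setting gives more weight to the 24 Ly6c2+ cells of WT sham, where 5 cells held 92.3% of the *Gbp2* reads. The first change therefore rests in part on few cells. No share over all genes is given for this setting. In sham hearts, CD3e-/- over WT gave 2 genes higher (3.82%) and 1 lower (7.12%) in Ly6c2- cells, with a median of -0.16. In Ly6c2+ cells it gave 0 higher (27.3%) and 5 lower (24.2%), with a median of -0.83.

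**Figure D3:**
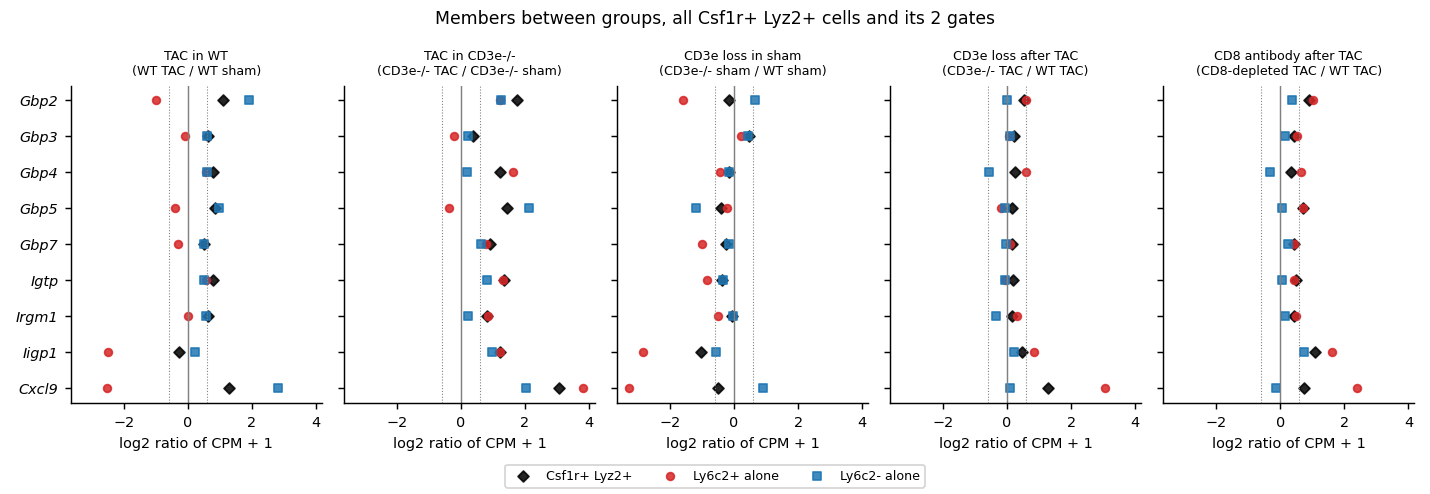
Log2 ratios of (CPM + 1) of the 9 genes in the 5 comparisons, for all Csf1r+ Lyz2+ cells (diamonds), Ly6c2+ cells alone (red) and Ly6c2- cells alone (blue), with dotted lines at 1.5-fold. All 9 diamonds lie above 0 in the comparisons of CD3e-/- TAC and CD8-depleted TAC with WT TAC, while only 3 of 9 blue points do so in the first of these.

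Ly6c2- cells were further divided by *Ccr2*, a receptor of monocyte-derived cells, at 500 CPM, a division chosen after the values were seen. *Iigp1* was higher in the Ccr2- cells in all 5 groups, with 31.7, 19.2, 48.1, 40.5 and 69.6 CPM against 1.82, 7.06, 6.72, 14.7 and 9.59 CPM in Ccr2+ cells. Its reads were in 8.51%, 9.19%, 11.3%, 11.1% and 13.7% of thinned Ccr2- cells and in 0.568%, 2.16%, 3.47%, 3.89% and 3.10% of thinned Ccr2+ cells. *Gbp3* had the opposite order, from 44.0, 55.8, 60.7, 67.3 and 75.6 CPM in Ccr2+ cells to 34.3, 49.3, 54.9, 54.9 and 52.4 CPM in Ccr2- cells. Among Ly6c2- cells, *Iigp1* was thus found mostly in those low in *Ccr2*, and *Gbp3* was not.

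Single cells also differed in how many of the 9 genes they held. At least 3 of the 9 were read in 12.0% (9.27 to 15.3), 15.6% (12.2 to 19.6), 24.3% (21.7 to 27.0), 34.4% (30.7 to 38.3) and 34.2% (30.3 to 38.2) of thinned Csf1r+ Lyz2+ cells. Both sham groups were lowest, WT TAC was between, and the other two TAC groups were nearly equal. At least 5 were read in 1.66%, 1.99%, 8.48%, 12.7% and 14.4%. Among Ly6c2+ cells, 12.5%, 15.2%, 23.0%, 28.5% and 37.1% held at least 5, against 1.09%, 0.811%, 5.78%, 7.13% and 7.19% of Ly6c2- cells. In Ly6c2+ cells, each of the other 8 genes was read more often in cells with *Gbp2* than in cells without it in all 5 groups. In Ly6c2- cells of CD3e-/- sham this did not hold for *Irgm1* (23.1% with and 26.3% without) and *Iigp1* (2.56% and 6.04%), and *Gbp4* was nearly even (2.56% and 2.42%). *Gbp5* is given as the example because it showed wide gaps. In Ly6c2+ cells of WT TAC, *Gbp5* was read in 57.9% of 57 cells with *Gbp2* and in 4.81% of 104 cells without it. The corresponding shares were 47.1% and 11.6% in CD3e-/- TAC, and 52.9% and 15.7% in CD8-depleted TAC. In Ly6c2- cells of WT TAC they were 23.5% of 119 cells and 4.29% of 746 cells. The pattern was not particular to the 9 genes. *Isg15*, a gene known for type I interferon, was also read more often with *Gbp2* in all 5 groups of both gates. In WT TAC its shares were 84.2% and 37.5% in Ly6c2+ cells, and 47.9% and 15.7% in Ly6c2- cells.

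**Figure D4:**
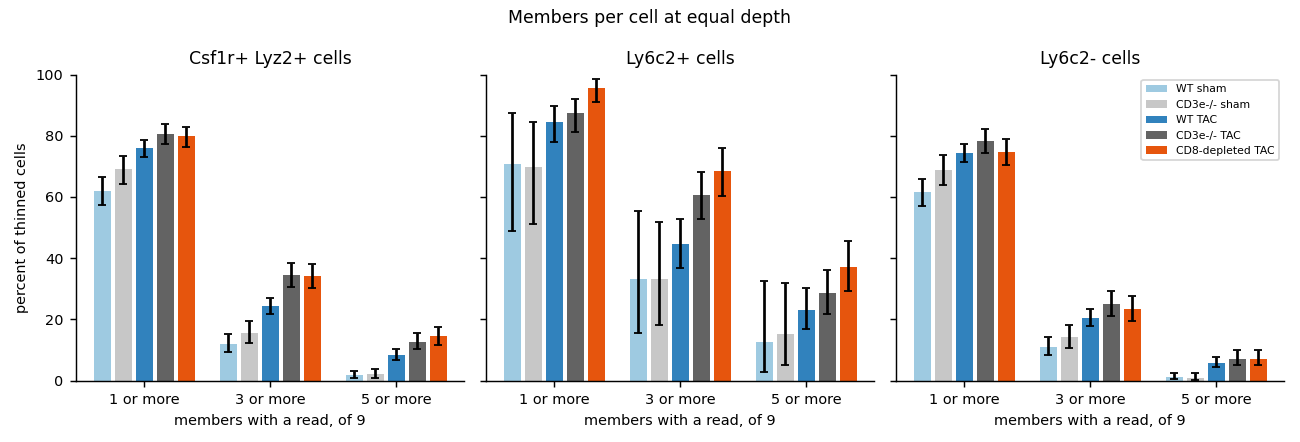
Percent of thinned cells with reads of at least 1, 3 or 5 of the 9 genes in each group, with exact 95% Clopper-Pearson limits. At 3 genes the Csf1r+ Lyz2+ shares are 12.0% and 15.6% in sham, 24.3% in WT TAC and 34.4% and 34.2% in the other TAC groups.

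Outside the Csf1r+ Lyz2+ gate each gene had its own distribution. *Gbp4* stood at 111, 34.8, 213, 94.9 and 130 CPM in the lymphoid gate, and its reads were in 37.7%, 13.6%, 62.9%, 38.5% and 45.8% of thinned lymphoid cells. The CD3e-/- shares rest on 3 of 22 cells in sham and 5 of 13 cells after TAC. In Cd79a+ cells *Gbp4* stood at 50.8, 39.3, 29.5, 27.9 and 57.6 CPM, above Csf1r+ Lyz2+ cells of the same group. In CD3e-/- sham its Cd79a+ limits (34.8 to 44.2) overlapped those of the lymphoid gate (27.1 to 44.0). *Gbp7* was likewise high in the lymphoid gate, at 196, 152, 203, 345 and 177 CPM. *Gbp2* was low in Cd79a+ cells, at 7.34, 15.5, 23.5, 3.78 and 15.1 CPM, and in Cd209a+ cells stood at 11.6, 45.1, 51.5, 154 and 63.4 CPM. The 154 CPM of CD3e-/- TAC rests on few cells, as 5 of 39 held 96.1% of the *Gbp2* reads. The thinned Cd209a+ shares with *Gbp2* were 5.43%, 23.2%, 16.3%, 18.4% and 16.1%. *Irgm1* was even across the Cd209a+ cells of the 5 groups, at 71.1, 83.5, 66.6, 71.5 and 66.7 CPM. *Iigp1* was close to absent there, at 0, 0, 2.40, 2.90 and 6.49 CPM, and was read in 1 of 434 Cd79a+ cells (0.230%), against 7.35% of unthinned Csf1r+ Lyz2+ cells. Parts of some transcripts are shared with other genes, so their reads could be split or misassigned. This held for 12.2% of *Gbp4* 50-base runs, where *Gbp6*, *Gbp8* and *Gbp11* shared the most, and for 9.64% of those of *Igtp*, with *Irgm2*.

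*Cxcl9* came from few cells, and the gates that held them differed with surgery. Its reads were in 18 cells of WT sham (1.80%), 24 of CD3e-/- sham (2.87%), 22 of WT TAC (1.36%), 22 of CD3e-/- TAC (2.39%) and 22 of CD8-depleted TAC (2.46%). In sham hearts 10 of 18 and 17 of 24 of these were Cd209a+ cells, whereas 2, 0 and 1 were in the TAC groups. Csf1r+ Lyz2+ cells, Ly6c2+ and Ly6c2- together, were 5 and 6 of the cells in sham and 16, 19 and 15 in TAC. Ly6c2+ cells alone were 1 and 1 in sham and 3, 8 and 5 in TAC. The Cd209a+ level was 17.4 and 74.0 CPM in sham and 1.56, 0 and 2.13 CPM in TAC, and reads were in 8.70%, 20.7%, 1.48%, 0% and 1.79% of thinned Cd209a+ cells. A single WT TAC cell outside the named gates held 3032 reads, 46.0% of that group's *Cxcl9* reads. *Cxcl9* was read in 0 of 434 Cd79a+ cells, which allows a share of up to 0.691% by a limit of 3 cells and 0.846% by Clopper-Pearson, against 1.76% of Csf1r+ Lyz2+ cells. It was read in 0 of 178 lymphoid cells, which allows up to 1.69% and 2.05%, so a lower lymphoid share was not detectable by the second limit. The share of *Cxcl9* cells among all kept cells was thus no higher after TAC than after sham surgery in WT and in CD3e-/- hearts, while the higher Csf1r+ Lyz2+ level came with a lower Cd209a+ level. The level over all kept cells was higher after TAC, at 9.75, 15.8, 31.6, 45.3 and 32.8 CPM in the 5 groups. The 5 richest cells held 52.5% to 87.4% of these reads.

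**Figure D5:**
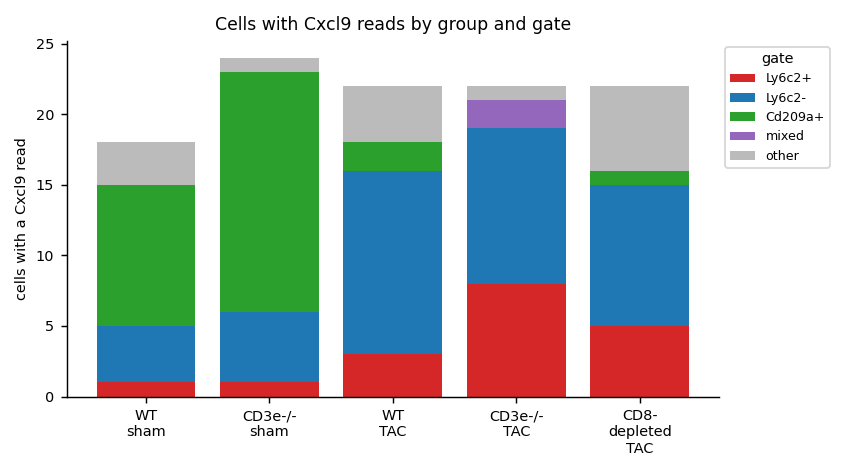
Number of kept cells with *Cxcl9* reads in each group, stacked by gate. Cd209a+ cells are 10 of 18 and 17 of 24 in the sham groups and 2, 0 and 1 in the TAC groups.

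The ligand, its receptor and *Irf1* were read in the same matrix. *Ifng* reads were in 27, 7, 19, 8 and 19 cells, which is 2.70%, 0.838%, 1.18%, 0.871% and 2.13% of kept cells, lowest in both CD3e-/- groups. Over all kept cells *Ifng* stood at 18.5, 6.49, 4.68, 2.16 and 8.66 CPM, highest in WT sham. Within the lymphoid gate it stood at 255, 190, 137, 228 and 147 CPM, where the CD3e-/- value was below WT in sham and above WT after TAC. The CD3e-/- lymphoid gates hold 28 and 15 cells, and in sums over all cells fewer cells and less RNA per cell cannot be told apart. Only 6 of 3471 Csf1r+ Lyz2+ cells had *Ifng* reads. The lowest *Ifng* levels over all kept cells were those of WT TAC and CD3e-/- TAC. A relation between the ligand and the 9 genes was not tested. The receptor genes in Csf1r+ Lyz2+ cells stood at 370, 363, 410, 432 and 414 CPM (*Ifngr1*) and 172, 174, 256, 252 and 263 CPM (*Ifngr2*), none past the size rule. *Irf1* stood at 213, 195, 115, 105 and 132 CPM, with a ratio of -0.89 for TAC in both genotypes, the direction opposite to most of the 9 genes. *Cxcr3*, the receptor of Cxcl9, stood at 110, 3.48, 176, 90.1 and 172 CPM in the lymphoid gate, lowest in CD3e-/- sham.

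Further interferon-gamma targets, a list without the 9 genes of which 29 of 36 could be tested in Csf1r+ Lyz2+ cells, were higher in 11 and lower in 1 for TAC in WT (median 0.41), and higher in 14 and lower in 4 for TAC in CD3e-/- hearts (0.56). Over all genes the shares were 6.00% higher and 5.04% lower in WT and 7.81% and 6.11% in CD3e-/- hearts, with medians of 0.03 and 0.04. They were higher in 2 and lower in 1 for CD3e loss in sham (0.11), where 3.55% of all genes were higher and 6.65% lower. For CD3e loss after TAC they were higher in 3 and lower in 0 (0.20), where 1.57% and 2.86% of all genes were. For CD8 depletion they were higher in 8 and lower in 0 (0.25), where 1.45% and 1.49% of all genes were. *Cxcl10*, a chemokine that shares Cxcr3 with Cxcl9, was at 185 CPM in WT TAC and 35.8 CPM in WT sham (2.34). After TAC it had a ratio of -0.50 for CD3e loss, where *Cxcl9* had 1.28. Of 24 genes known for type I interferon, 23 were higher with TAC in WT (median 1.66) and 23 in CD3e-/- hearts (1.75), above the medians of 0.78 and 1.23 for the 9 genes. For CD3e loss after TAC and CD8 depletion, 3 and 10 of the 24 were higher and 0 lower, with medians of 0.20 and 0.51 beside 0.22 and 0.48 for the 9 genes.

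The summed level of the 8 GTPase genes was 1194, 644, 875, 1030 and 1397 CPM in Ly6c2+ cells and 212, 210, 347, 334 and 409 CPM in Ly6c2- cells. That of the type I list was 4151, 2849, 5845, 6790 and 9244 CPM and 741, 793, 1884, 1742 and 1956 CPM. Both sums were highest in CD8-depleted TAC in either gate, and the GTPase sum of WT sham Ly6c2+ cells was second. Across 29 sums of a gate and group, the 8 genes most like the mean of the 9 were, in order, *Lgals9* (r = 0.92), *Herc6* (0.91), *Zbp1*, *Slfn1*, *1600014C10Rik* and *Trim30a* (0.88 each), and *Irf7* and *Ifi47* (0.87 each), as a description over 11263 genes. These sums share 1 library and the groups share gates. Of the 9, *Igtp* (0.83) and *Gbp2* (0.81) were most like the other 8, *Cxcl9* (0.45) and *Gbp4* (0.10) least, while *Ifng* stood at -0.11. This ranking depended on the gates taken in. Over the 10 sums of Ly6c2+ and Ly6c2- cells only, *Gbp4* stood at 0.91 and *Cxcl9* at 0.82. There *Gbp7* (0.99) was most like the other 8 and *Iigp1* (0.79) least. The non-members most like the 9 also differed there, led by *Ifi213* and *Ifi35* (0.99 each).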

How the data were processed

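The authors deposited 1 table of read counts per gene and cell, not scaled for depth and not corrected to molecules. By its name the table had passed an error correction (DBEC), and low counts of some genes were absent from it. The submitters' processing notes name cutadapt 2.10, Bowtie2 2.4.2 and GRCm38. Of 5363 columns, 48 were not used (40 hashtag doublets and 8 without a hashtag). Cells with at least 500 genes and a mitochondrial share of at most 0.4 were kept (5263 of 5315), with the 27767 of 27809 genes read in at least 5 cells. Gates were applied in this order: mixed (*Cd79a* at least 200 and *Csf1r* at least 100 CPM, 82 cells, left aside), Cd79a+ (200), Cd209a+ (*Cd209a* 200), Csf1r+ Lyz2+ (100 and 1000, divided at *Ly6c2* 500), lymphoid (*Csf1r* under 100 and *Nkg7*, *Cd3g* or *Trbc2* at least 100), and other (681 cells). No further doublet caller was run. Reads were summed per gate and group and scaled to CPM, and ratios used a pseudocount of 1. With 1 sample per group no test was possible, so genes are called at 1.5-fold. Shares used cells thinned to 38916 reads, the 10th percentile, without shallower cells. At this depth a cell without reads may still express a gene, and the lowest non-zero count in a cell was 6 reads for *Gbp2*, *Gbp5* and *Iigp1*, 8 for *Cxcl9* and 1 for the other 5 genes.

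All 9 genes are named, with further genes of the lists taken by the size of their ratio. The members and lists were chosen with earlier results of these data known. The calculation was tested on simulated data. Python 3.11.15 was used with pandas 2.3.3 for tables, numpy 2.4.6 for sums, scipy 1.17.1 for exact limits and matplotlib 3.10.9 for plots. The alternatives tried were another pseudocount or filter, other gate limits, every kept cell, means of single-cell CPM, thinning, leaving out the richest cells, equal gate shares and single gates. The division by *Ccr2* was chosen after seeing the data. The result for 1 gene is not reported here.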

Additional observations from a re-analysis of the deposited data

Results flagged for a closer look

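*Iigp1* had TAC ratios of opposite sign in the 2 genotypes, of which the WT one was under the size rule. In Csf1r+ Lyz2+ cells its log2 ratio of TAC over sham was -0.27 in WT hearts (22.6 against 27.4 CPM) and 1.23 in CD3e-/- hearts (31.8 against 13.0 CPM). Each arm is 1 sample, so the difference was not tested. The WT ratio kept its sign in 9 of 15 alternatives. It was 0.37 over every kept cell, 0.33 with doubled gate limits, 0.85 without the 5 cells of each group richest in *Iigp1*, -0.75 with equal gate shares, 0.21 in Ly6c2- cells alone and -2.48 in Ly6c2+ cells alone, where 24 WT sham cells stand behind it. In both *Ccr2* parts of the Ly6c2- cells, WT TAC was also above WT sham. *Iigp1* stood there at 6.72 against 1.82 CPM in Ccr2+ cells and at 48.1 against 31.7 CPM in Ccr2- cells. The CD3e-/- ratio was 1.27 without the 5 richest cells, 0.98 in Ly6c2- cells and 1.22 in Ly6c2+ cells.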

How the results depend on the processing

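No paired analysis was possible because each group is 1 sample. Counts of the 9 genes were recomputed under 15 alternatives, and the cause of a change was not tested except where fewer cells or another mix of gates is the alternative itself. For TAC in WT, 7 higher became 4 with a pseudocount of 10 CPM, 1 with the gate shares of WT TAC and 6 over every kept cell. They became 0 in Ly6c2+ cells, 5 in Ly6c2- cells and 4 in Ly6c2- Ccr2- cells. The range over the 15 alternatives was 0 to 9, and smaller changes are not all listed here. The 0 lower became 1 with equal gate shares and 3 in Ly6c2+ cells. For TAC in CD3e-/- hearts, 8 higher became 5 in Ly6c2- Ccr2+ cells, 6 in Ly6c2- cells, 7 in Ly6c2+ cells and 9 over every kept cell. For CD3e loss in sham, 0 higher became 1 with doubled gate limits, 2 over every kept cell, 1 with means of single-cell CPM, 1 with thinned cells, 3 without the 5 richest cells, 2 in Ly6c2- cells, 3 in Ccr2+ and 1 in Ccr2- cells. Its 1 lower became 0 with doubled limits, 2 over every kept cell, 2 without the 5 richest cells, 3 with equal gate shares, 5 in Ly6c2+, 0 in Ccr2+ and 4 in Ccr2- cells. In Ly6c2+ cells 24.2% of all genes were lower for CD3e loss in sham and 17.3% for TAC in WT. For CD3e loss after TAC, 1 higher became 2 with means of single-cell CPM, 2 with thinned cells, 4 in Ly6c2+ and 0 in Ly6c2- cells, and 0 lower became 1 in Ccr2+ cells. For CD8 depletion, 4 higher became 2 with a pseudocount of 10, 2 with equal gate shares and 3 over every kept cell. They became 5 in Ly6c2+ cells, 1 in Ly6c2- cells and 0 in both Ccr2 parts. The 0 lower became 1 in each Ccr2 part. Over every kept cell 4.83%, 7.08% and 2.15% of all genes were higher for TAC in WT, TAC in CD3e-/- and CD8 depletion. For CD3e loss in sham, 1.82% were higher there and 4.25% lower. The shares for Ly6c2+ and Ly6c2- cells are given with the gate results above. No share over all genes is given for the other alternatives, among them equal gate shares and the *Ccr2* parts. Their counts can therefore not be set against a background.

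Ratios of called genes changed sign in single gates and in 1 other setting. In Ly6c2+ cells TAC in WT gave -0.98 for *Gbp2*, -0.08 for *Gbp3*, -0.41 for *Gbp5* and -2.52 for *Cxcl9*, and TAC in CD3e-/- gave -0.36 for *Gbp5*. *Iigp1* for CD3e loss in sham was 0.07 without the 5 richest cells and 1.52 in Ccr2+ cells. *Cxcl9* was -0.42 in Ccr2+ cells for CD3e loss after TAC, and -0.14 in Ly6c2- and -0.11 in Ccr2+ cells for CD8 depletion, where *Gbp5* was -0.88 in Ccr2- cells. Over every kept cell the *Cxcl9* ratio was 0.51 for CD3e loss after TAC and 0.05 for CD8 depletion, below the size rule. Thinning to 32160 reads kept the sign of 43 of 45 differences in shares.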
